A study of Mus musculus with 48 samples.

Results

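The genes described here encode the voltage-gated ion channels and their close relatives: potassium channels and their accessory subunits (symbols beginning Kcn), voltage-gated sodium channels (Scn followed by a number), voltage-gated calcium channels (Cacna, Cacnb, Cacng), hyperpolarisation-activated channels (Hcn) and chloride channels and transporters (Clcn). A rule picked them by symbol alone, from the array's probe sets that name 1 gene, and it was set with earlier results of these data known. The rule found 68 genes with 88 probe sets, of 8251 genes named on the array and 12422 probe sets that are not array controls. A probe set is a group of short oligonucleotides designed to read 1 transcript, and some may also bind others. No channel probe set was left out for this, and such binding was not tested. Of the 68 genes, 50 had 1 probe set, 17 had 2 and 1, Clcn3, had more, and the brightest probe set stood for its gene.

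Expression was measured in mouse amygdala and hippocampus on 48 one-colour Affymetrix arrays. The labels give 3 arms, FC, CS and NH, with no further explanation. From the title of the series, which is about associative and nonassociative learning, FC was read as fear conditioning, CS as the conditioned stimulus alone and NH as naive home cage. Amygdala had 6 FC, 6 CS and 10 NH arrays, and hippocampus had 8 FC, 8 CS and 10 NH arrays. The labels give no strain, age, sex or time after training, and none states that each array stands for its own animal. The p-values therefore cover the spread between these arrays only, which may be technical. The amygdala array numbers can be read as pairs of animals, so those arrays may be pools, and some animals may have given both tissues. No label states this.

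Ion channels are membrane proteins that let selected ions pass, many of them when a voltage or ligand opens them. Sodium channels start and carry the action potential, calcium channels couple it to transmitter release and gene expression, and potassium channels end it and set how readily a neuron fires again. In hippocampal pyramidal cells the Kv4 channels, for which Kcnd2 encodes a pore subunit, carry the A-type current that limits the spread of action potentials into dendrites.

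The promoters of 4 genes are shown so that genes on both sides of the difference between the tissues can be compared. They are the 2 genes with the widest difference in each direction among those with exactly 1 window in the sequence table used here. Each line gives the 250 bases upstream of the transcript start that the table gives, 5′ to 3′ on the gene's strand, from RefSeq on build GRCm38.p6, with each CG dinucleotide in capitals. Kcnd2 (chr6:21215096-21215345, plus strand) and Scn1a (chr2:66440838-66441087, minus strand) were lower in amygdala. Kcna5 (chr6:126535556-126535805, minus strand) and Kcnj4 (chr15:79505242-79505491, minus strand) were higher in amygdala. The windows of Kcnd2, Scn1a and Kcna5 adjoin the annotated gene, while that of Kcnj4 lies inside the gene's annotated span (chr15:79480226-79512511).
Kcnd2: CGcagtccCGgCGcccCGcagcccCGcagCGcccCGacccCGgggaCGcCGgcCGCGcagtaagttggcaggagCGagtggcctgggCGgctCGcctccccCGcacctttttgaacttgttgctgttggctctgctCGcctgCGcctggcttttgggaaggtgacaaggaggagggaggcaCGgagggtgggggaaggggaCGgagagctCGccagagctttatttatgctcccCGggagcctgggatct
Scn1a: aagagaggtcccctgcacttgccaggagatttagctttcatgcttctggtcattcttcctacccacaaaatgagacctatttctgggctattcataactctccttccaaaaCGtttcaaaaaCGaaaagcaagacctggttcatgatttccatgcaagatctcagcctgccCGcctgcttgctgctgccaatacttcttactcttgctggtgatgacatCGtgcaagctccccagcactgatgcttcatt
Kcna5: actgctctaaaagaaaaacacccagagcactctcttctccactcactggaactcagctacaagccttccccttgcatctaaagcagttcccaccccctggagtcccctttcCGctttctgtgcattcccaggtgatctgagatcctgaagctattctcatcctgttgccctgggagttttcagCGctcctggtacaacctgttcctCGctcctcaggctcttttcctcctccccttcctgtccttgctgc
Kcnj4: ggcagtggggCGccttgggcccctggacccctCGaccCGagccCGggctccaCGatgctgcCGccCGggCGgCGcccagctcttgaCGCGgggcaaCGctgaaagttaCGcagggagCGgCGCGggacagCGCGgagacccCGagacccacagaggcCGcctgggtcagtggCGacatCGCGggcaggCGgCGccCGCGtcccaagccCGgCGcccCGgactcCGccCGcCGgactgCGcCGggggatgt

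The 4 windows do not sort by direction. Kcnd2 held 22 CG dinucleotides and Scn1a 4, and of the genes higher in amygdala Kcnj4 held 35 and Kcna5 3. Of all 32851 windows of this length, 2.97% had at least as many as Kcnj4 and 71.0% had at least as many as Kcna5. Windows were found for 53 of the 68 channel genes, 70 windows in all, with a median of 8 CG dinucleotides against 6 over all windows. A GC box, GGGCGG on either strand, was present in 45.7% of channel windows and 32.7% of all windows. TATAAA on either strand was present in 4.29% of channel windows and 12.4% of all windows. The palindrome TGACGTCA, the full cyclic AMP response element, was present in 1.43% of channel windows and 1.55% of all windows. With 70 channel windows, the smaller of these shares rest on very few windows, and some genes have several windows. All windows together cover 27025 genes, not only those on the array. Such matches describe letters in a window and were not tested as sites.

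The tissues were compared by percentile, the rank of a probe set among all probe sets of its own array on a scale of 0 to 100. The array medians of the deposited intensity were 52.2 to 56.0 in amygdala and 76.4 to 80.5 in hippocampus, so intensities of the tissues were not set side by side. A percentile compares a probe set with itself in the other tissue, and percentiles of different genes do not give the order of their levels. Each batch named in the labels holds arrays of 1 tissue, so tissue and batch cannot be told apart further than batch as a random block allows. The amygdala arrays came from 3 batches and the hippocampus arrays from 4. The block used 1 correlation for all probe sets. The p-values between tissues may therefore be too small for genes that differ much between batches. Fewer cells of a type and less RNA per cell cannot be told apart in bulk tissue.

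Between the tissues 41 of the 68 channel genes were called (limma, adjusted p below 0.05), 25 higher and 16 lower in amygdala. That is 60.3% of the channel genes, against 42.7% of all probe sets on the array. The shares higher were 36.8% of channel genes and 21.9% of all probe sets, and the shares lower were 23.5% and 20.9%. The median difference was 0.77 percentile points over the channel genes and 0.02 over all probe sets. Only 44 channel genes passed the filter on dim probe sets in at least 1 tissue, and of these 24 were called, 12 in each direction. Of all probe sets that passed it in at least 1 tissue, 44.9% were called, 23.3% higher and 21.6% lower. Such a filter also lets in genes that are bright in 1 tissue alone. Clcn5, Kcna3, Kcnc1, Kcne1 and Kcns1 passed in amygdala alone and were all called higher there. Cacng1 passed in hippocampus alone and was called lower in amygdala. The 24 calls and their even split therefore lean in part on genes let in by the tissue where they were higher. The other calls, 13 higher and 4 lower, were made on probe sets among the dimmest 40% in both tissues. They were Cacna1g, Cacna1s, Kcna5, Kcna6, Kcnj12, Kcnj15, Kcnj2, Kcnk3, Kcns2, Kcnu1, Scn10a, Scn7a and Scn9a on the higher side and Kcna4, Kcnj3, Kcnj6 and Kcnj8 on the lower side.

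**Figure D1:**
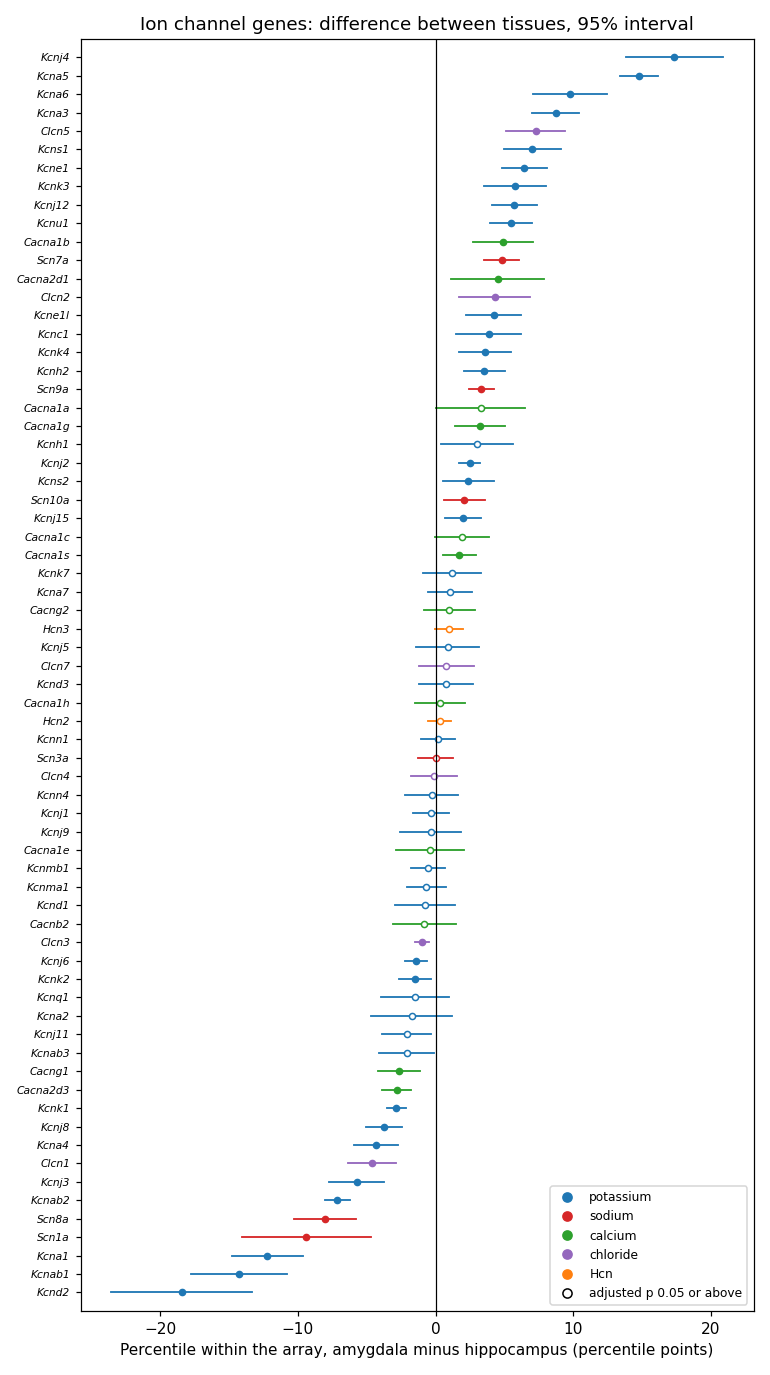
Difference of the percentile within the array, amygdala minus hippocampus, for the 68 channel genes, in percentile points. Points are estimates and lines their 95% intervals, colours give the ion or family, and open points are genes that were not called. Kcnj4 and Kcna5 lie furthest to the right and Kcnd2, Kcnab1 and Kcna1 furthest to the left.

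Potassium channel genes were called in both directions, and the largest differences toward hippocampus were those of Kcnd2, Kcnab1 and Kcna1. Kcnd2 had percentiles of 37.8 at the lowest, 43.4 at the median and 55.0 at the highest over the 22 amygdala arrays, against 45.1, 62.7 and 75.8 over the 26 hippocampus arrays. The ranges overlapped although the medians were far apart. The difference was -18.5 ± 2.54 percentile points (SE, limma adjusted p = 5.73e-08). In hippocampus the arm means of Kcnd2 were 6.31 to 6.82 log2 in batch 4 and 6.83 to 7.17 in batches 5 to 7. The second probe set of Kcnd2 differed by -19.2 ± 1.74 points, and there every amygdala array lay below every hippocampus array. Its promoter, the first printed, is rich in CG dinucleotides.

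Kcna1, a Kv1 pore subunit of axons, lay at 72.0, 75.3 and 79.5 (lowest, median, highest) in amygdala and at 78.7, 88.9 and 92.2 in hippocampus. It differed by -12.2 ± 1.28 points (SE, limma adjusted p = 5.38e-11), and 1 hippocampus array lay within the amygdala range. Kcnab1 and Kcnab2 encode cytoplasmic beta subunits that bind Kv1 channels. Kcnab1 lay at 57.7, 66.4 and 73.1 in amygdala and at 66.3, 81.1 and 86.5 in hippocampus, a difference of -14.3 ± 1.74 points. Its arm means in hippocampus were 7.26 to 7.50 log2 in batch 4 and 7.77 to 8.11 in batches 5 to 7. Kcnab2 lay at 85.2, 89.9 and 91.2 in amygdala and at 95.3, 96.9 and 97.8 in hippocampus, and its arrays did not overlap. Its difference of -7.14 ± 0.44 points (SE, limma adjusted p = 1.49e-18) corresponds to -1.12 on the log2 scale after each array was centred on its median.

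Second probe sets of these subunits pointed the same way, at -12.1 ± 0.78 points for Kcnab2 and -2.53 ± 0.82 for Kcnab1. Kcna4, another Kv1 pore subunit, was lower by a smaller amount, -4.33 ± 0.78 points, on a dim probe set. The third beta subunit, Kcnab3, was not called at -2.10 ± 0.99 points, and neither was Kcna2 at -1.72 ± 1.46.

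Other Kv1 genes were higher in amygdala. Kcna5 lay at 33.5, 36.8 and 39.7 in amygdala and at 19.0, 21.5 and 25.3 in hippocampus, with no overlap. It differed by 14.8 ± 0.69 points (SE, limma adjusted p = 3.51e-23), but its second, dimmer probe set differed by -2.57 ± 0.65 points, so the probe sets of Kcna5 disagree in direction. Kcna3, the Kv1 subunit best known from T cells, lay at 38.5, 41.7 and 44.6 in amygdala and at 28.8, 32.4 and 36.9 in hippocampus, again with no overlap. Its difference was 8.74 ± 0.85 points. Kcna6 differed by 9.76 ± 1.32 points and lay at 23.1 to 34.4 in amygdala against 13.1 to 24.0 in hippocampus. Of the 7 Kcna genes, 3 were called higher, 2 lower and 2 were not called, where 21.9% of all probe sets were higher and 20.9% lower.

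**Figure D2:**
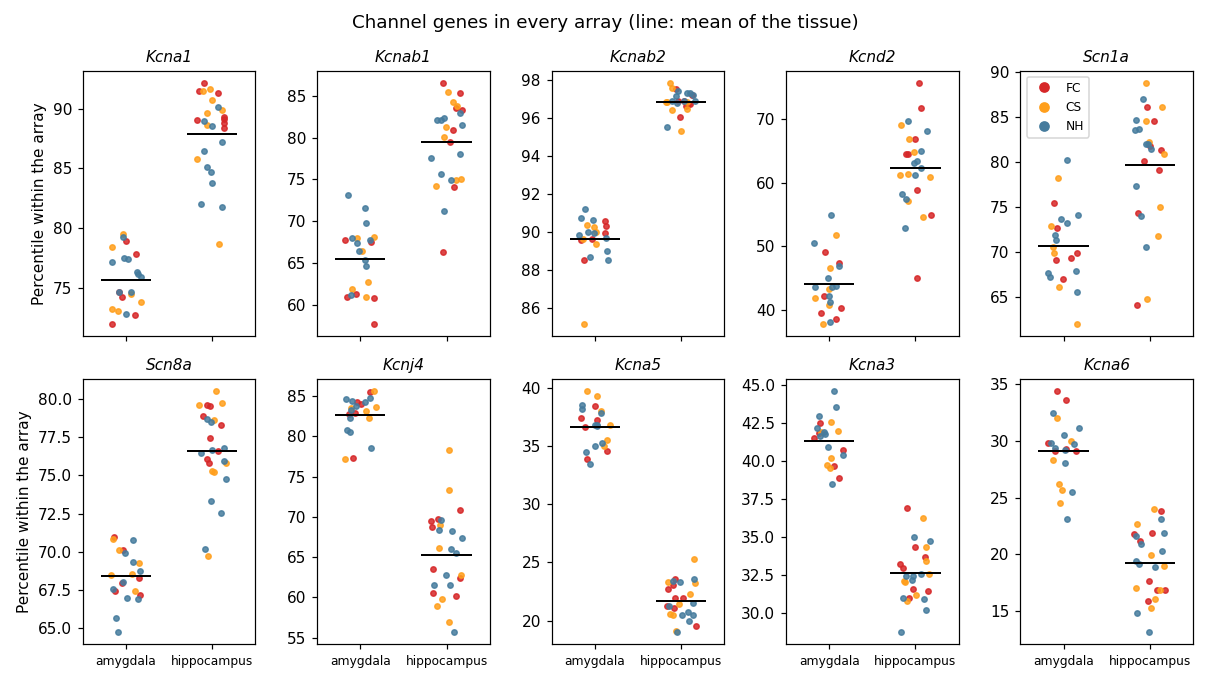
Percentile within the array of 10 channel genes in every array, amygdala left and hippocampus right in each panel. Points are single arrays coloured by arm (FC, CS, NH), and lines are the means of the tissue. The arrays of Kcnab2, Kcna5 and Kcna3 do not overlap between the tissues, and the arms lie among each other.

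Further Kv subunit genes were mostly higher or not called. Kcns1 and Kcns2 encode modifier subunits that are silent alone and alter other Kv channels, and both were higher in amygdala, Kcns1 by 7.02 ± 1.03 points and Kcns2 by 2.39 ± 0.91. Kcnc1, a Kv3 subunit of fast-firing neurons, was higher by 3.86 ± 1.17 points. The small accessory subunits Kcne1 (6.44 ± 0.82 points, no overlap of arrays) and Kcne1l (4.24 ± 1.00) were higher too. Kcnh2, which encodes the ERG channel, was higher by 3.54 ± 0.75 points. Kcnd1 at -0.78 ± 1.08, Kcnd3 at 0.76 ± 0.96, Kcnh1 at 3.01 ± 1.29 and Kcnq1 at -1.5 ± 1.21 points were not called.

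Among inward rectifiers, Kcnj4 showed the widest difference of all channel genes in the direction of amygdala. Kcnj4 encodes Kir2.3, a channel that holds the resting potential near that of potassium. It lay at 77.2, 83.4 and 85.6 in amygdala and at 55.7, 65.8 and 78.4 in hippocampus, so 1 hippocampus array reached the amygdala range. In hippocampus the arm means of Kcnj4 were 6.73 and 6.84 log2 in batch 5 and 6.85 to 7.71 in batches 4, 6 and 7, where 7.71 is 1 array. The difference between the tissues was 17.3 ± 1.76 points (SE, limma adjusted p = 2.26e-11), or 1.01 on the median-centred log2 scale. Kcnj12 (5.73 ± 0.81 points) and Kcnj2 (2.47 ± 0.37), which encode Kir2.2 and Kir2.1, were higher as well, both on dim probe sets.

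The G-protein-gated rectifiers did not follow. Kcnj3, which encodes GIRK1, was lower by 5.74 ± 1.00 points and Kcnj6, which encodes GIRK2, by 1.42 ± 0.41, both on dim probe sets. Kcnj9 at -0.36 ± 1.09 and Kcnj5 at 0.88 ± 1.14 points were not called, while a second probe set of Kcnj9 differed by 7.23 ± 2.69 points. Kcnj8, a subunit of ATP-sensitive channels of vessels, was lower by 3.73 ± 0.64 points, and the related subunit of ATP-sensitive channels in neurons, Kcnj11, was not called at -2.08 ± 0.88. Of the 11 Kcnj genes, 4 were higher, 3 lower and 4 not called, where 21.9% of all probe sets were higher and 20.9% lower. Of the 4 higher ones, Kcnj15 was higher by 2.01 ± 0.64 points, but its other probe set was called lower at -1.75 ± 0.70, so its probe sets disagree in direction.

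The 2-pore channels set leak currents. Kcnk3 (5.79 ± 1.11 points) and Kcnk4 (3.61 ± 0.95) were higher in amygdala. Kcnk1 was lower by 2.84 ± 0.33 points, at 87.5 to 90.0 in amygdala and 90.3 to 92.7 in hippocampus with no overlap, and Kcnk2 was lower by 1.48 ± 0.57. Of the calcium-activated channels and their relatives, Kcnu1, known from sperm, was higher by 5.47 ± 0.75 points, and Kcnma1 (-0.67 ± 0.70) and Kcnn1 (0.17 ± 0.61) were not called.

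Sodium channels differed by gene. Scn1a, the Nav1.1 channel of inhibitory neurons, lay at 62.0, 70.2 and 80.2 in amygdala and at 64.1, 81.6 and 88.8 in hippocampus, and the ranges overlapped widely. It was lower by 9.38 ± 2.32 points (SE, limma adjusted p = 9.27e-04), and its second probe set was lower by 7.30 ± 2.10. In hippocampus the arm means of Scn1a were 7.22 to 7.62 log2 in batch 4 and 7.875 to 8.233 in batches 5 to 7. Scn8a, the Nav1.6 channel of the axon initial segment, lay at 64.8, 68.4 and 70.9 in amygdala and at 69.7, 76.6 and 80.5 in hippocampus. It was lower by 8.05 ± 1.12 points, while its second, dim probe set was not called at 0.32 ± 0.56.

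The sodium channels known mainly from peripheral neurons and glia were higher in amygdala, all on dim probe sets. Scn7a was higher by 4.81 ± 0.63 points and Scn9a by 3.32 ± 0.46, and the arrays of both did not overlap. Scn10a was higher by 2.09 ± 0.73. Scn3a was not called at 0.00 ± 0.63 points.

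Of the 7 pore subunit genes of calcium channels 3 were called higher, 0 lower and 4 were not called, where 21.9% of all probe sets were higher and 20.9% lower. Cacna1b, the N-type channel of nerve endings, was higher by 4.89 ± 1.08 points, Cacna1g, a T-type channel, by 3.23 ± 0.91, and Cacna1s, known from skeletal muscle, by 1.72 ± 0.60. Cacna1a (3.27 ± 1.60), Cacna1c (1.94 ± 0.97), Cacna1e (-0.40 ± 1.22) and Cacna1h (0.32 ± 0.89) were not called, although a second probe set of Cacna1e differed by 3.68 ± 0.78. Of the accessory subunits, Cacna2d1 was higher by 4.50 ± 1.69 points, Cacna2d3 lower by 2.81 ± 0.52 and Cacng1 lower by 2.63 ± 0.76. The calls of Cacna2d1 and Cacng1 were not kept under every alternative. In hippocampus the arm means of Cacna2d1 were 6.61 log2 in batch 7, which holds NH only, and 6.91 to 7.28 in batches 4 to 6. Cacnb2 (-0.82 ± 1.14) and Cacng2 (1.01 ± 0.91) were not called.

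Neither Hcn gene was called, at 0.30 ± 0.42 points for Hcn2 and 0.98 ± 0.50 for Hcn3, yet a second, dimmer probe set of Hcn2 differed by -10.9 ± 1.65. Among the chloride genes Clcn5 (7.29 ± 1.06) and Clcn2 (4.29 ± 1.28) were higher and Clcn1 (-4.60 ± 0.87) and Clcn3 (-0.98 ± 0.25) lower. One further probe set of Clcn3 differed by 4.61 ± 1.33 points in the opposite direction. Clcn4 (-0.11 ± 0.84) and Clcn7 (0.79 ± 0.98) were not called. Clcn7 was the 1 gene whose brightest probe set differed between the tissues, and its other probe set, the brighter one in amygdala, was called higher at 3.69 ± 0.90.

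**Figure D3:**
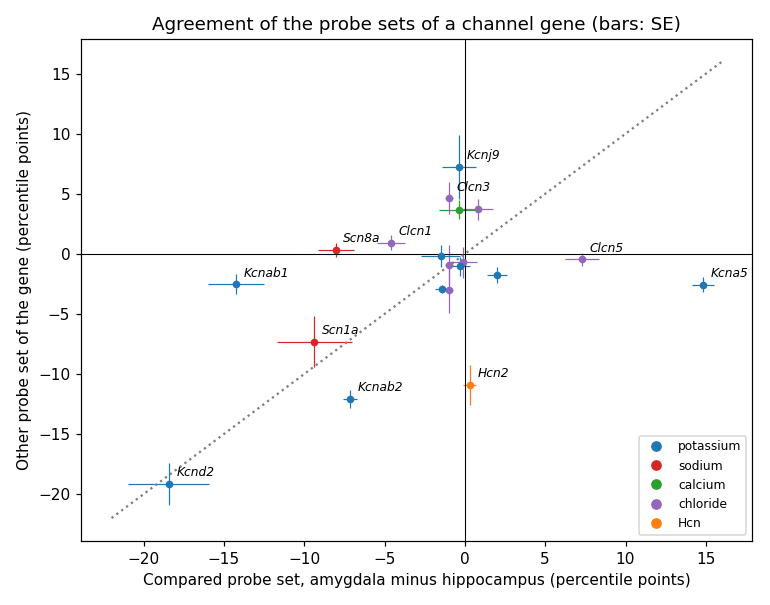
Difference between the tissues (amygdala minus hippocampus, percentile points) of the probe set compared for each gene, on the horizontal axis, and of every other probe set of the same gene, on the vertical axis. Bars are SE and the dotted line marks equality. Kcnd2, Kcnab2, Scn1a and Kcnab1 lie below 0 on both axes, and Kcna5 has opposite signs.

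All amygdala arrays lay above every hippocampus array for 5 channel genes (Kcna3, Kcna5, Kcne1, Scn7a and Scn9a), where 2.34% of all probe sets did so. They lay below for 2 (Kcnab2 and Kcnk1), where 2.04% of all probe sets did. Together that is 10.3% of the channel genes, against 4.38% of all probe sets, and both shares include dim probe sets. Kcna5, Scn7a and Scn9a were below the filter on dim probe sets in both tissues. Kcna3 and Kcne1 passed it in amygdala alone, where they were higher. Only Kcnab2 and Kcnk1 passed it in both tissues. The second probe set of Kcna5 pointed the other way, at -2.57 ± 0.65 points, and that of Kcnab2 the same way, at -12.1 ± 0.78.

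Lists of genes that work with the channels held calls in both directions, where 21.9% of all probe sets were higher and 20.9% lower. Of 12 ion pumps and exchangers 4 were higher and 5 lower in amygdala. The sodium-calcium exchanger Slc8a1 differed by -12.5 ± 1.38 points and Atp1b2 by 13.3 ± 3.25. Of 17 channel partners and anchors 4 were higher and 6 lower. Fgf12, which encodes a protein that binds sodium channels, differed by 12.9 ± 1.08 and Fgf13 by -9.26 ± 3.12. Of 19 other cation and anion channels 5 were higher and 6 lower, with Trpc4 at -22.8 ± 0.86 and the ryanodine receptor Ryr2 at -16.4 ± 1.55. Ryr1 was among the higher ones at 4.29 ± 0.78.

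Markers of cell types and regions are given beside these differences, and their part in them was not tested. Of all probe sets, 21.9% were higher and 20.9% lower. Of the hippocampal neuron markers 6 of 7 were lower in amygdala and 1 higher, and the mean percentile of the list was 33.4 to 36.4 in amygdala and 61.4 to 66.9 in hippocampus. Of the inhibitory neuron markers 7 of 9 were higher and 0 lower, with list means of 82.5 to 85.0 and 76.0 to 78.4. Of the oligodendrocyte markers 5 of 7 were lower and 0 higher, with list means of 59.2 to 63.0 in amygdala and 66.7 to 72.1 in hippocampus. Of the striatum markers 2 of 4 were higher and 0 lower, and of the amygdala and piriform markers 2 of 6 were higher and 2 lower. Astrocyte markers had 1 of 8 higher and 4 lower, microglia 3 of 10 higher and 2 lower, vessel 2 of 11 higher and 3 lower, and hypothalamus and thalamus 2 of 7 higher and 0 lower. Of the choroid plexus markers 1 of 6 was higher and 3 lower, and Ttr spread from 34.4 to 94.3 over the hippocampus arrays. Without the 5 hippocampus arrays in which Ttr was above the 75th percentile, 40 channel genes were called between the tissues. The share of all probe sets called without those arrays is not given here, so this count has no background beside it. The part of choroid plexus in the differences was not tested.

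The arms were compared within each tissue on the log2 scale, with batch as a block, over the 7453 probe sets that passed the filter. The filter kept 43 channel genes in amygdala and 39 in hippocampus, 38 in both. Clcn5, Kcne1, Kcna3, Kcns1 and Kcnc1 passed in amygdala alone and Cacng1 in hippocampus alone. The comparisons of FC and of CS with NH share the NH arrays, and within a tissue only 4 NH arrays share a batch with the other arms.

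No channel gene was called in any of the 6 comparisons (limma, adjusted p below 0.05). In amygdala 0 of 43 were called for FC minus NH, where 0.0939% of all probe sets were called, for CS minus NH (0.0134%) and for FC minus CS (0.0%). At an unadjusted p below 0.05 the counts were 2, 3 and 0, where the shares of all probe sets were 5.15%, 3.92% and 1.23%. In hippocampus 0 of 39 were called for FC minus NH (0.0134%), CS minus NH (0.0134%) and FC minus CS (0.0%). There the counts at an unadjusted p below 0.05 were 1, 1 and 0, where the shares of all probe sets were 2.27%, 1.45% and 0.765%.

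Fos, an immediate early gene that neurons switch on with activity, was called in the 4 comparisons with NH and in neither comparison of FC with CS. In amygdala its log2 difference was 1.53 ± 0.15 for FC minus NH (SE, limma adjusted p = 1.44e-06) and 1.15 ± 0.15 for CS minus NH. In hippocampus it was 1.09 ± 0.15 for FC minus NH and 0.98 ± 0.15 for CS minus NH. For FC minus CS it was 0.38 ± 0.13 in amygdala and 0.11 ± 0.11 in hippocampus (limma adjusted p = 0.9995 and 0.9999).

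The intervals give the size of a difference that these arrays leave room for. In amygdala the 95% intervals of the channel genes reached a median of 0.14 log2 to either side for FC minus NH, 0.14 for CS minus NH and 0.13 for FC minus CS. In hippocampus they reached 0.16, 0.17 and 0.12. The widest reached 0.26, 0.27 and 0.24 in amygdala and 0.35, 0.35 and 0.27 in hippocampus, in the same order. Each interval lies around the estimate of its gene, so these widths are not limits around 0. The median difference over the channel genes was -0.01 in amygdala and 0.03 in hippocampus for FC minus NH, against 0.01 and 0.00 over all probe sets tested.

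**Figure D4:**
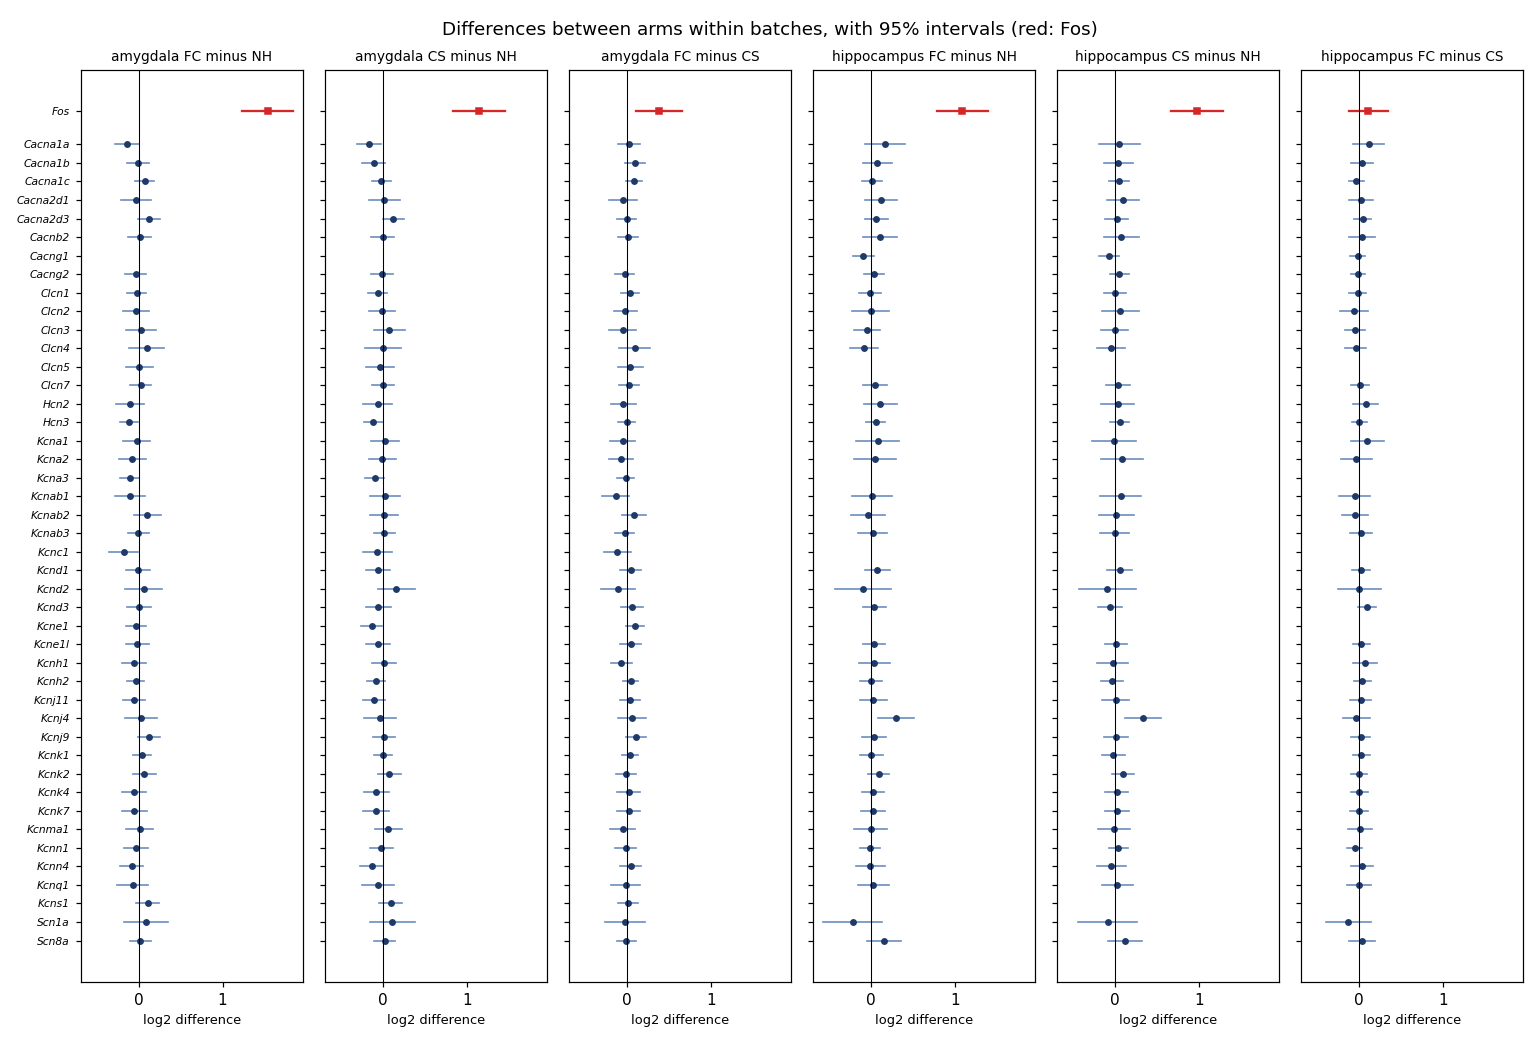
Log2 differences between arms within batches for every channel gene that passed the filter, in 6 panels, amygdala left and hippocampus right. Points are estimates, lines are 95% intervals, and the red squares show Fos. No channel gene reached the size of the Fos difference from NH.

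In amygdala the smallest p-values belonged to genes with small differences. Cacna1a, the P/Q-type channel of nerve endings, differed by -0.16 ± 0.07 log2 for CS minus NH and by -0.14 ± 0.07 for FC minus NH (SE, limma adjusted p = 0.94 and 0.89). Its values ran from 5.27 over 5.42 to 5.79 in FC, from 5.12 over 5.60 to 5.84 in CS and from 5.08 over 5.29 to 5.78 in NH (lowest, median, highest). The groups overlapped, and without the batch term the differences were 0.14 for FC and 0.18 for CS, of the opposite sign.

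Hcn3 differed by -0.11 ± 0.05 log2 for FC minus NH and for CS minus NH. Its arrays ran from 8.12 to 8.34 in FC, from 8.12 to 8.25 in CS and from 8.13 to 8.46 in NH. Kcnc1 differed by -0.17 ± 0.08 for FC minus NH, with 5.16 to 5.41 in FC and 5.24 to 5.54 in NH. Kcne1 differed by -0.13 ± 0.06 for CS minus NH, with 5.39 to 5.56 in CS and 5.46 to 5.70 in NH. All these ranges overlapped.

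On the positive side Cacna2d3, an accessory calcium channel subunit, differed by 0.12 ± 0.06 for FC minus NH and 0.13 ± 0.06 for CS minus NH. It lay at 7.26 to 7.58 in FC, 7.34 to 7.58 in CS and 7.14 to 7.41 in NH. Kcnj9 differed by 0.12 ± 0.06 for FC minus NH and by 0.11 ± 0.06 for FC minus CS. Kcns1 differed by 0.11 ± 0.06 for FC minus NH and 0.10 ± 0.07 for CS minus NH, and Kcnd2 by 0.16 ± 0.11 for CS minus NH. For FC minus CS, Kcne1 differed by 0.10 ± 0.05, Cacna1c by 0.09 ± 0.05, Kcnab1 by -0.13 ± 0.08, Kcnc1 by -0.11 ± 0.08 and Kcnd2 by -0.10 ± 0.10.

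In hippocampus Kcnj4 had the smallest p of the channel genes against NH, at 0.30 ± 0.10 log2 for FC minus NH and 0.33 ± 0.10 for CS minus NH (SE, limma adjusted p = 0.9999 for both). Its values ran from 6.77 over 7.06 to 7.32 in FC, from 6.62 over 6.97 to 7.71 in CS and from 6.55 over 7.04 to 7.22 in NH. The groups overlapped, and without the batch term the differences were 0.06 and 0.07. In batch 4 alone they were 0.39 for FC and 0.40 for CS, and in batch 6 alone 0.07 and 0.52, where CS had 1 array. Leaving out 1 array at a time gave 0.16 to 0.39 for FC and 0.18 to 0.43 for CS.

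Cacna2d1, which encodes an accessory subunit that binds gabapentin, showed the reverse dependence on batch. It ran from 6.91 over 7.12 to 7.50 in FC, from 6.83 over 7.20 to 7.36 in CS and from 6.48 over 6.71 to 7.09 in NH. The 6 NH arrays of batch 7, which holds NH only, averaged 6.61, while the NH arrays of batches 4 and 6 averaged 6.91 and 6.96. Without the batch term FC minus NH was 0.42 ± 0.09 and was called (limma adjusted p = 0.045). With the batch term FC minus NH was 0.12 and CS minus NH was 0.10, and neither was called. The gene was chosen here because it was called in that setting, after its values were seen.

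**Figure D5:**
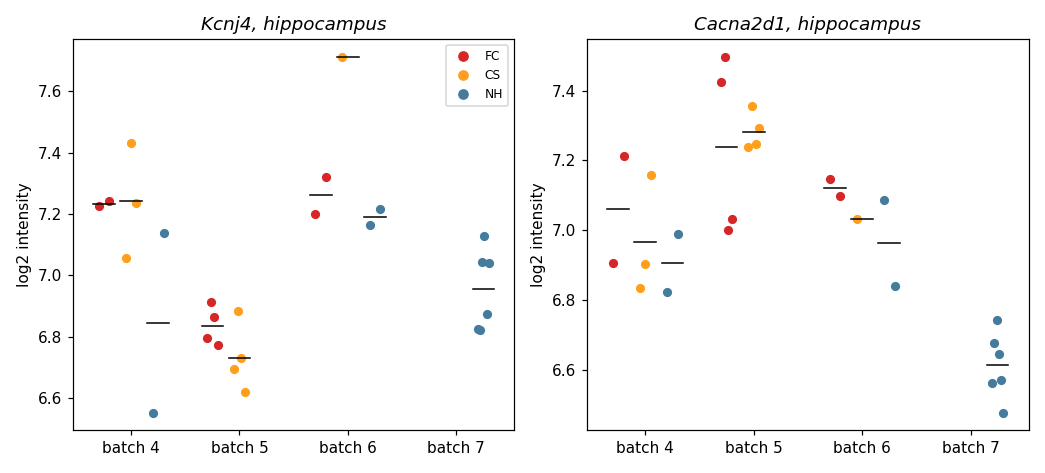
Log2 intensity of Kcnj4 and Cacna2d1 in every hippocampus array, by batch and by arm (FC, CS, NH from left to right in each batch). Points are arrays and lines are means. The NH arrays of batch 7 lie lowest for Cacna2d1, and the FC and CS means of Kcnj4 are lowest in batch 5.

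The other hippocampus genes with the smallest p-values stayed within 0.22 log2 of 0. Against NH, Scn8a differed by 0.16 ± 0.10 in FC and 0.12 ± 0.10 in CS, Kcnk2 by 0.09 ± 0.06 in both, and Cacng1 by -0.09 ± 0.06 in FC and -0.07 ± 0.06 in CS. Scn1a (-0.22 ± 0.17) and Clcn4 (-0.09 ± 0.08) completed the list for FC, and Kcnd3 (-0.06 ± 0.07) and Kcnh2 (-0.04 ± 0.06) that for CS. Without NH replicate 100 the difference of Scn1a was -0.03 for FC minus NH, and that of Scn8a was 0.07 for FC minus NH and 0.02 for CS minus NH. Of the 36 named arm differences in both tissues, 26 moved by over 1.5 times without 1 array, 1 of them with a change of sign, and none was called without 1 array. For FC minus CS, Kcnd3 differed by 0.10 ± 0.05, Cacna1a by 0.11 ± 0.09, Hcn2 by 0.08 ± 0.07, Kcnn1 by -0.05 ± 0.04, Scn1a by -0.13 ± 0.13 and Cacna1c by -0.04 ± 0.04.

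Whether an arm difference itself differed between the tissues was tested for the 38 channel genes that passed the filter in both. None was called (limma, adjusted p below 0.05), and 0.0% of the 7242 probe sets tested were called in each of the 3 contrasts. At an unadjusted p below 0.05 there were 2 channel genes for FC minus NH, 2 for CS minus NH and 1 for FC minus CS, where the shares of all probe sets were 3.42%, 2.53% and 1.37%. The amygdala difference minus the hippocampus difference was -0.37 ± 0.15 log2 for Kcnj4 and -0.17 ± 0.07 for Hcn3 in CS minus NH. It was -0.17 ± 0.07 for Hcn3 and -0.30 ± 0.14 for Cacna1a in FC minus NH. In FC minus CS it was 0.12 ± 0.06 for Cacna1c and -0.13 ± 0.10 for Kcnh1.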

How the data were processed

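The deposited intensity values, 1 per probe set and array on a linear scale, were made by the authors with RMA, per the submitters' processing notes. The version is not given in the sources used here. RMA makes the distributions of arrays alike, so it hides a shift that most transcripts share. Array medians differ between the tissues, which appear to have been normalized separately.

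The log2 of the intensity was taken with nothing added. Of 12488 probe sets, 66 controls were left out, and 10833 name 1 gene, 396 several and 1193 none in the platform annotation. All 68 channel symbols are in the RefSeq table of GRCm38.p6. For each arm comparison limma 3.58.1 in R 4.3.3 was fitted on the 7453 probe sets per tissue left after removing the 40% with the lowest mean, with batch as a fixed block. Tissues were compared on percentiles over all probe sets with arm as a covariate and batch as a random block (consensus correlation 0.2347). Tests were two-sided, with Benjamini-Hochberg adjustment over all probe sets tested and a threshold of 0.05. The tests were tried on simulated data. The number of arrays limits the precision. For a gene with several probe sets the brightest was used.

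Genes named were the 12 called with the largest difference between tissues in each direction, the 3 higher and 3 lower with the smallest p in each arm comparison, the 2 with the smallest p in each test between tissues, and a list of well-known channels. The members and the lists of markers and pathway genes were chosen with earlier results of these data known. Alternatives covered the batch term, filters, array weights, normalization, single arrays and batches.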

Additional observations from a re-analysis of the deposited data

Results flagged for a closer look

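In 10 of 216 groups of a channel gene, 1 array lay far from the others of its tissue and arm by Dixon's criterion, and chance gives about 1 in 20. All values are log2 intensities. The highest array stood apart for Cacna1c in amygdala CS (6.46, with the next at 6.35), Scn1a in amygdala NH (7.33, next 6.93), Cacna1b in hippocampus CS (7.80, next 7.55) and Kcnh2 in hippocampus NH (7.67, next 7.56). The lowest array stood apart for Kcnj4 in amygdala FC (7.13, next 7.54), Kcnab2 in amygdala CS (7.68, next 8.03), Kcnk1 in amygdala CS (7.87, next 8.01) and Clcn5 in amygdala NH (5.07, next 5.30). It also did for Scn7a in hippocampus CS (3.91, next 4.10) and Clcn5 in hippocampus NH (5.22, next 5.42). The 10 values came from 10 different arrays by their labels.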

How the results depend on the processing

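Between the tissues 36 to 47 channel genes were called under 13 alternatives, and 31 of the 41 kept their call and direction in all of them. Those that lost their call in at least 1 alternative were Cacna1s, Cacna2d1, Clcn2, Kcnj15, Kcns2 and Scn10a on the higher side. On the lower side they were Cacng1, Clcn3, Kcnj6 and Kcnk2. With only probe sets past the filter in 1 tissue or both, 24 of 44 were called. That filter also lets in genes bright in 1 tissue alone. The count of 0 in hippocampus FC minus NH became 1 without the batch term (Cacna2d1). In amygdala FC minus NH it became 3 with array weights, Cacna2d3 (0.18), Kcnj9 (0.18) and Kcnc1 (-0.21). The cause was not tested. Shares of all probe sets called are not given here for the 13 alternatives, the fit without the batch term or array weights. These counts therefore have no background beside them. Without the batch term the sign turned, in log2, for Cacna1a in amygdala CS minus NH (0.18) and FC minus NH (0.14), for the difference between tissues of its FC minus NH (0.0226), for Kcnd2 in amygdala CS minus NH (-0.0752), for Cacng1 in hippocampus CS minus NH (0.0054) and for Cacna1c in hippocampus FC minus CS (0.000565). In batch 4 alone it turned for Cacng1 in hippocampus, FC minus NH (0.0183) and CS minus NH (0.00323). In batch 6 alone it turned in hippocampus for Scn1a in FC minus NH (0.0202), Kcnh2 in CS minus NH (0.0742), and Cacna1a (-0.0114) and Hcn2 (-0.0681) in FC minus CS. Without the hippocampus arrays with high Ttr, a setting added after seeing the data, Cacna1c in FC minus CS was 0.0038, and leaving out 1 array at a time took Kcnh2 in CS minus NH from -0.0687 to 0.0016. No paired analysis was possible because no replicate number, as the labels write it, is shared between arms of a tissue or between the tissues. If amygdala numbers are pairs of animals, some arrays of the tissues share animals, which no label states and no fit took into account.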
